A study of Mus musculus with 7 samples.

Results

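The epithelial-mesenchymal transition (EMT) factors Snai1, Snai2, Twist1, Twist2, Zeb1, Zeb2 and Prrx1 and the mesenchymal markers Vim, Cdh2 and Cdh11 were followed across 7 libraries of sorted mouse cells from normal mammary fat pad and 4T1 breast tumours. The 10 genes were chosen by name as known EMT genes, with earlier results of these data known; no threshold on their values was used. All 10 were listed in both count tables, among 24394 gene names in the first table and 13236 in the second. EMT is the programme by which epithelial cells give up their junctions and keratins for a migratory, matrix-producing state. Its core transcription factors bind E-box motifs (the Snail and Zeb zinc finger proteins as repressors of epithelial genes, the Twist proteins as basic helix-loop-helix factors), and fibroblasts and other mesenchymal cells use many of the same genes without having passed through it. In carcinoma these genes are therefore read both as signs of tumour cells that have lost epithelial features and as genes of the stroma.

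The mice were female BALB/c. The first table held 3 libraries that were all negative for Ter119 (erythroid cells), CD45 (leukocytes) and EpCAM (epithelial cells): podoplanin-positive cells labelled pCAF and podoplanin-negative cells labelled sCAF from tumours, set against normal fat pad stroma of untreated mice (NMF). The tumours came from 12-week-old mice, 4 weeks after orthotopic injection of 100000 4T1-luc cells, derived from the 4T1 mouse mammary carcinoma line, and the NMF mice were 8 weeks old. The second table held 4 libraries from tumours of 4T1-GFP cells at the same age and time. They were negative for Ter119 and CD45 and split by GFP, which the injected cells carry, and by EpCAM, giving GFP+ EpCAM-, GFP+ EpCAM+, GFP- EpCAM- and GFP- EpCAM+. Fat pads were digested with collagenase II and IV in a mechanical dissociator and tumours with collagenase A, so age, tissue and digestion cannot be told apart in a comparison with NMF. The sources used here do not give how many mice contributed cells to a library.

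Each group was 1 library, so no difference has a replicate check and no test between samples was made. Values are counts per gene from 3' mRNA sequencing, and normalised CPM, which are counts brought to a common library size by TMM scaling within a table. The libraries totalled between 436051 counts (pCAF) and 2590144 counts (sCAF). A level of 3 counts, put in for a count of 0 in a ratio, was 7.48 normalised CPM in pCAF and between 1.13 and 2.44 in the other 6 libraries. A ratio is given with its exact 95% counting interval, which covers counting error only, and a call of higher or lower needs at least 20 counts over both libraries and an interval entirely past 2-fold. In such bulk sorts, fewer cells of a type and less RNA per cell cannot be told apart.

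The labels were set against cell type markers. The 10 fibroblast markers summed to 63956 normalised CPM in pCAF, 231 in the library labelled sCAF and 41199 in NMF, with Lum and Pdpn at 0 counts in the sCAF library. The 7 epithelial markers summed to 87.2 normalised CPM in pCAF, 3869 in the library labelled sCAF and 185 in NMF. The sCAF library thus lacked most of the fibroblast signal its label names and held epithelial keratin signal, and it is called here the library labelled sCAF. The 12 endothelial markers summed to 214 normalised CPM in pCAF, 778 in the library labelled sCAF and 3377 in NMF. Among the sorts, GFP+ EpCAM- had a fibroblast marker sum of 65.4 normalised CPM, GFP+ EpCAM+ of 38.3, GFP- EpCAM- of 4151 and GFP- EpCAM+ of 134. GFP- EpCAM- also held the most endothelial signal of the sorts (11114 normalised CPM over 12 markers, against 281 to 433 in the other 3), and the most pericyte and smooth muscle signal (4128, against 34.6 to 105). It thus held signal of several stromal cell types. Epithelial markers summed to 3024 in GFP+ EpCAM-, 4979 in GFP+ EpCAM+, 921 in GFP- EpCAM- and 10212 in GFP- EpCAM+.

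**Figure D1:**
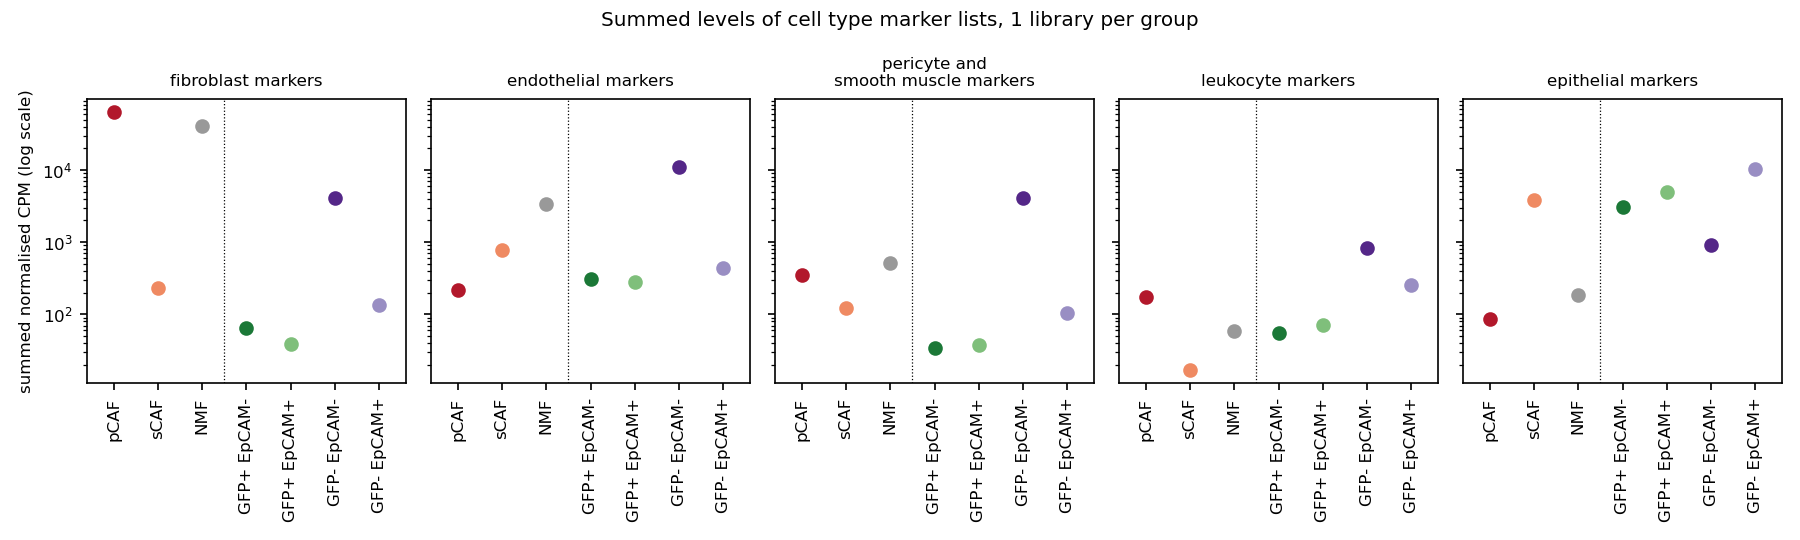
Summed normalised CPM (log scale) of 5 cell type marker lists in each library, 1 point per library, with a dotted line between the separately scaled tables. The fibroblast sums of pCAF (63956) and NMF (41199) lie far above that of the library labelled sCAF (231), and among the 4 sorts GFP- EpCAM- is highest for fibroblast, endothelial, pericyte and leukocyte markers.

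RefSeq windows upstream of the start site (GRCm38.p6) were matched for 6 of the 10 members: Snai1, Twist1, Twist2, Zeb2, Prrx1 and Vim. The 250 bases before the start are printed 5′ to 3′ for Snai1 (chr2:167537945-167538194, plus strand), Vim (chr2:13574061-13574310, plus strand) and Twist1 (chr12:33957421-33957670, plus strand), which were counted in all 7 libraries, and for Twist2 (chr1:91801211-91801460, plus strand) and Prrx1 (chr1:163313651-163313900, minus strand), which stayed at 3 counts or fewer in every library but pCAF, NMF and GFP- EpCAM-. The window of Epcam (chr17:87635729-87635978, plus strand), the epithelial gene used for sorting, is shown because it holds the E-box that Snail and Zeb proteins are known to bind. Capitals mark the E-box CAGGTG or its reverse complement CACCTG, the TATAA sequence or its reverse complement TTATA, and CCAAT or its reverse complement ATTGG; the TATAA and TTATA of Vim overlap. The windows follow RefSeq starts, which for Vim and Prrx1 lie inside the GENCODE gene spans given below.
Snai1: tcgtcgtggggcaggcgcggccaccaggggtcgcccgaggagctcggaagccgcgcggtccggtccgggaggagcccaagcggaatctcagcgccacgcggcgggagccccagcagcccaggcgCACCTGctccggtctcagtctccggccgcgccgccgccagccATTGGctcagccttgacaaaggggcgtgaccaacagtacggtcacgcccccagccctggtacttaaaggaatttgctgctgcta
Vim: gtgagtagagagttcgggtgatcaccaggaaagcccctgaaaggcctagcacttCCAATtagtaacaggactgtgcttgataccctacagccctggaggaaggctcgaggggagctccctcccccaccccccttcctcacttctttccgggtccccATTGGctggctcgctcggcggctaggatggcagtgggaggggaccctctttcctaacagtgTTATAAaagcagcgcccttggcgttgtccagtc
Twist1: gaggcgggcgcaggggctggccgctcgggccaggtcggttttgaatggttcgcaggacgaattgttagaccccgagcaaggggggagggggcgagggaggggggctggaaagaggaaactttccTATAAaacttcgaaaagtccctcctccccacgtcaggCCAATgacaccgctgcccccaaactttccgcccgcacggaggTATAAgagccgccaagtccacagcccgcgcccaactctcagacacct
Twist2: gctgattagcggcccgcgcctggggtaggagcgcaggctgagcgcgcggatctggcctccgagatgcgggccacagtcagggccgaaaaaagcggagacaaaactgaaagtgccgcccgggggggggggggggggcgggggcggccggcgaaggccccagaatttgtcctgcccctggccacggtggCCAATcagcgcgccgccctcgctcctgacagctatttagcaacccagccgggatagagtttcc
Prrx1: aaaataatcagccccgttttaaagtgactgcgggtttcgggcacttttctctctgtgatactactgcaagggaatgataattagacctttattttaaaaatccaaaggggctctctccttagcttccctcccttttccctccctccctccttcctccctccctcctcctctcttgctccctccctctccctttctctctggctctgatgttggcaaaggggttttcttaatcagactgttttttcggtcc
Epcam: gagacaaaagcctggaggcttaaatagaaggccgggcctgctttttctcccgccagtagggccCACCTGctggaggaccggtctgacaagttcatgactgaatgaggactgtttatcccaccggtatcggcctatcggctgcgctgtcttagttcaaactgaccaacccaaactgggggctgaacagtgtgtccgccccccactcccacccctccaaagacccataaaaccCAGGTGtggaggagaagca
Snai1 held 1 E-box, from 126 to 121 bases before the start, and 1 CCAAT match. Epcam held 2 E-boxes, from 187 to 182 and from 19 to 14 bases before the start. Vim held TATAA matches from 33 to 28 bases before the start and 2 CCAAT matches, Twist1 held TATAA from 126 to 122 and from 47 to 43 bases before the start and 1 CCAAT match, Twist2 held 1 CCAAT match, and Prrx1 held none of these motifs. In 32851 RefSeq windows of the same 250 bases, 17.2% held the E-box, 22.8% TATAA and 33.8% CCAAT in either orientation. A match describes the letters of a window and no binding was measured.

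Snai1 and Snai2 encode the zinc finger repressors Snail and Slug, which silence E-cadherin and other junction genes. Snai1 (chr2:167538195-167542814, plus strand, GRCm38) stood at 122 normalised CPM in pCAF (49 counts), 159 in the library labelled sCAF (423 counts) and 54.4 in NMF (67 counts). In the sorts it stood at 175 in GFP+ EpCAM- (364 counts), 122 in GFP+ EpCAM+ (303 counts), 242 in GFP- EpCAM- (311 counts) and 76.5 in GFP- EpCAM+ (125 counts). Snai1 was thus counted in tumour cell and stromal sorts alike, lowest in NMF in the first table and in GFP- EpCAM+ in the second. Neighbours in the order of the 4 sorts were all separated by their counting intervals, whereas pCAF and the library labelled sCAF were not.

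Snai2 (chr16:14705852-14709385, plus strand) was a gene of few counts, with a different distribution. It had 9 counts in pCAF (22.4 normalised CPM), 1 in the library labelled sCAF (0.377) and 43 in NMF (34.9). In the sorts it had 0 counts in GFP+ EpCAM- and GFP+ EpCAM+, 23 in GFP- EpCAM- (17.9 normalised CPM) and 1 in GFP- EpCAM+ (0.612). Snai2 was therefore above 3 counts in pCAF, NMF and GFP- EpCAM-, the libraries in which all 10 fibroblast markers had a count, and in no other. Counting error did not separate pCAF from NMF.

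Twist1 and Twist2 encode basic helix-loop-helix factors of mesoderm and dermal mesenchyme. Twist1 (chr12:33957671-33959829, plus strand) stood at 212 normalised CPM in pCAF (85 counts), 68.9 in the library labelled sCAF (183 counts) and 244 in NMF (300 counts). It stood at 195 in GFP+ EpCAM- (405 counts), 101 in GFP+ EpCAM+ (250 counts), 148 in GFP- EpCAM- (190 counts) and 50.8 in GFP- EpCAM+ (83 counts). GFP+ EpCAM- tumour cells were thus the highest of the sorts for Twist1, at a ratio to GFP- EpCAM- of 1.32 (1.11 to 1.57), and pCAF and NMF did not differ beyond their counting intervals.

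Twist2 (chr1:91801461-91848028, plus strand) had 31 counts in pCAF (77.3 normalised CPM), 1 in the library labelled sCAF (0.377) and 69 in NMF (56.0). It had 0 counts in GFP+ EpCAM-, GFP+ EpCAM+ and GFP- EpCAM+, and 16 in GFP- EpCAM- (12.4 normalised CPM). The paralogs therefore differed in where they were counted: Twist1 had at least 83 counts in each of the 7 libraries, and Twist2 more than 1 in 3.

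Zeb1 and Zeb2 encode zinc finger homeodomain repressors that repress the miR-200 family and are repressed by it. Zeb1 (chr18:5591860-5775467, plus strand) stood at 145 normalised CPM in pCAF (58 counts), 1.51 in the library labelled sCAF (4 counts) and 51.1 in NMF (63 counts). It stood at 5.29 in GFP+ EpCAM- (11 counts), 2.01 in GFP+ EpCAM+ (5 counts), 58.3 in GFP- EpCAM- (75 counts) and 1.84 in GFP- EpCAM+ (3 counts). Zeb1 was high in pCAF, NMF and GFP- EpCAM-, and neighbours in the order of the other 3 sorts were not separated by counting error.

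Zeb2 (chr2:44983632-45117395, minus strand) had the fewest counts after Cdh2. It had 4 counts in pCAF (9.97 normalised CPM), 1 in the library labelled sCAF (0.377) and 15 in NMF (12.2). In the sorts it had 13 in GFP+ EpCAM- (6.25), 1 in GFP+ EpCAM+ (0.403), 13 in GFP- EpCAM- (10.1) and 3 in GFP- EpCAM+ (1.84). Both EpCAM- sorts held more Zeb2 counts than both EpCAM+ sorts, but counting error did not separate GFP+ EpCAM- from GFP- EpCAM+ (ratio 3.40, 0.935 to 18.6). The antisense gene Zeb2os overlaps Zeb2 and had 3 to 20 counts per library, and since the sources used here do not give the strand handling, the Zeb2 counts are uncertain.

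Prrx1 (chr1:163245119-163313710, minus strand) encodes a paired-related homeodomain factor of limb and craniofacial mesenchyme and of fibroblasts. It stood at 329 normalised CPM in pCAF (132 counts), 0.754 in the library labelled sCAF (2 counts) and 222 in NMF (273 counts). It had 0 counts in GFP+ EpCAM- and GFP+ EpCAM+, 103 in GFP- EpCAM- (80.0 normalised CPM) and 2 in GFP- EpCAM+ (1.22). No Prrx1 count came from the GFP+ sorts, where 0 counts allow up to 1.44 normalised CPM (EpCAM-) and 1.21 (EpCAM+).

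Vim (chr2:13573927-13582826, plus strand) encodes vimentin, the intermediate filament of mesenchymal cells, which cultured and metastatic carcinoma cells often express too. It stood at 6412 normalised CPM in pCAF (2572 counts), 5978 in the library labelled sCAF (15867 counts) and 3882 in NMF (4782 counts). In the sorts it stood at 8664 in GFP+ EpCAM- (18028 counts), 6035 in GFP+ EpCAM+ (14979 counts), 9064 in GFP- EpCAM- (11666 counts) and 4141 in GFP- EpCAM+ (6767 counts). No library lacked Vim, and the highest level was 1.65 times the lowest in the first table (pCAF over NMF) and 2.19 times in the second (GFP- EpCAM- over GFP- EpCAM+). The order of pCAF and the library labelled sCAF, and of GFP+ EpCAM- and GFP- EpCAM-, depends on the scaling: the pCAF ratio to sCAF was 1.07 (1.03 to 1.12) and 0.963 with total counts, and the GFP+ to GFP- ratio was 0.956 (0.934 to 0.978) and 1.04 with total counts.

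The cadherins Cdh2 (N-cadherin, chr18:16588877-16809246, minus strand) and Cdh11 (OB-cadherin of osteoblasts and fibroblasts, chr8:102632095-102785642, minus strand) mediate adhesion between mesenchymal cells. Cdh2 had 7 counts in pCAF (17.4 normalised CPM), 0 in the library labelled sCAF and 10 in NMF (8.12). Cdh11 had 60 counts in pCAF (149.6 normalised CPM), 0 in the library labelled sCAF and 74 in NMF (60.1). In GFP- EpCAM- there were 14 counts of Cdh2 (10.9 normalised CPM) and 5 of Cdh11 (3.88), and the other 3 sorts had 0 counts of both. Neither cadherin was detected in GFP+ cells, where 0 counts allow up to the same 1.77 and 1.49 normalised CPM.

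**Figure D2:**
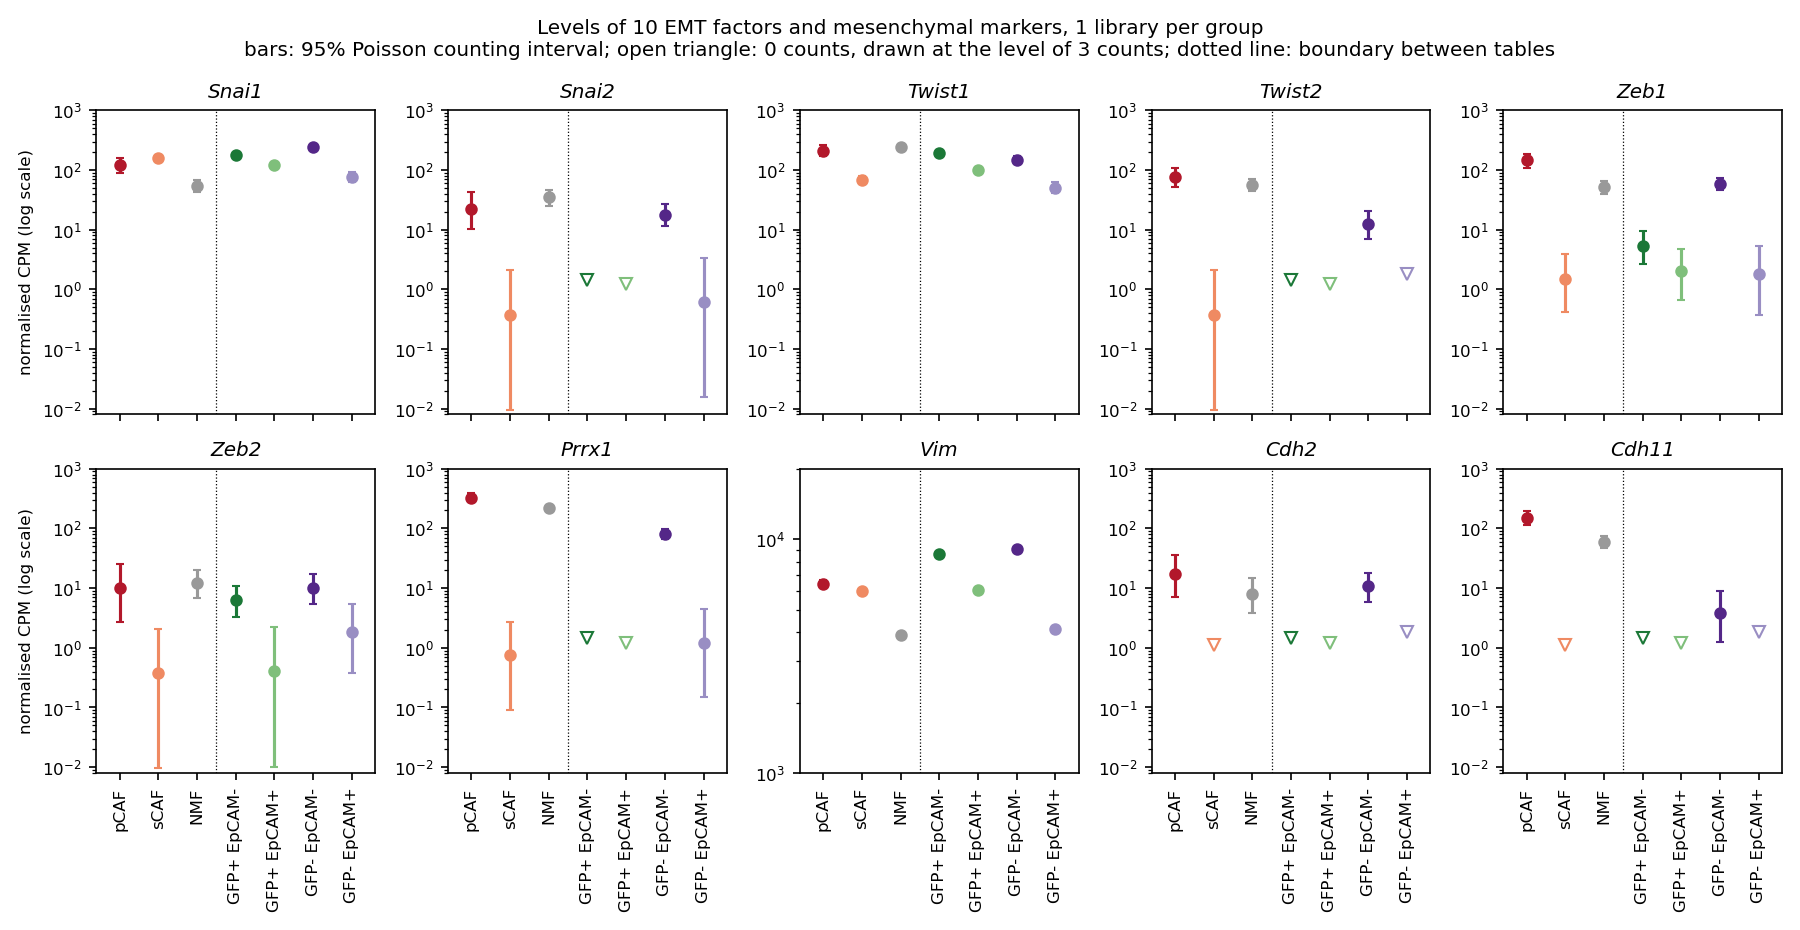
Level of each member in normalised CPM (log scale, Vim on a narrower axis) in the 7 libraries, with 95% Poisson counting intervals; open triangles mark 0 counts and stand at the level of 3 counts, and the dotted line separates the tables. Snai1, Twist1 and Vim are counted in all 7 libraries, whereas Snai2, Twist2, Prrx1, Cdh2 and Cdh11 lie at or near the floor in the library labelled sCAF, both GFP+ sorts and GFP- EpCAM+.

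Relative to normal stroma, the podoplanin-positive fibroblasts held most members at similar or moderately higher levels. Zeb1 stood at 2.83 times its NMF level (1.94 to 4.10), Cdh11 at 2.49 (1.74 to 3.55) and Snai1 at 2.25 (1.52 to 3.29). These 3 intervals lay above 1 and reached below 2-fold. Prrx1 stood at 1.48 (1.20 to 1.83), Vim at 1.65 (1.57 to 1.73), Twist2 at 1.38 (0.873 to 2.14), Twist1 at 0.870 (0.676 to 1.11) and Snai2 at 0.643 (0.275 to 1.34). Of the 8 members with at least 20 counts none was called, against 7.58% of 8129 genes called higher and 7.91% called lower. With DESeq2 size factors Zeb1 was called higher, and with total counts every log2 ratio of this comparison moved by -0.21. The median log2 ratio was 0.65 over the 8 members and -0.20 over all genes. All 12 endothelial markers were called lower in pCAF than in NMF, and the part of other cell types in these ratios was not tested. Zeb2 and Cdh2 had too few counts.

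Among genes that the EMT factors act on or with, those of matrix and migration stood out. Of 21 measured mesenchymal effectors (matrix, contractile and migration genes) 11 were higher in pCAF than in NMF and 1 was lower, with a median log2 ratio of 1.34. Tnc, which encodes the matrix protein tenascin C, was 44.8-fold higher (29.1 to 72.5), on 321 counts in pCAF and 22 in NMF. The collagen genes Col1a2 and Col1a1, which are also among the fibroblast markers, stood at ratios of 2.54 (2.47 to 2.61) and 1.88 (1.81 to 1.94). Col1a2 was called higher and Col1a1 was not. Axl, a receptor tyrosine kinase, was the effector called lower, at 2.39-fold (2.07 to 2.78). Of 6 measured other EMT-associated factors none was higher and 2 were lower, with a median of -1.38. Tcf3, the E protein partner of Twist factors, was lower at 7.10-fold (2.95 to 22.3). Gsc, at 0 counts in pCAF, was lower at 2.82-fold with 3 counts put in for the 0. Immediate early genes, which respond to tissue dissociation, also stood apart, summing to 15840 normalised CPM in pCAF against 6630 in NMF, with 6 of 10 higher. Their part in the Snai1 ratio was not tested.

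The library labelled sCAF differed from NMF in 7 of its 8 measured members. Prrx1 was 294-fold lower (80.6 to 2441), Twist2 149-fold (25.8 to 5956), Snai2 92.7-fold (15.8 to 3744), Zeb1 33.9-fold (12.6 to 128) and Twist1 3.53-fold (2.93 to 4.27). Cdh11, at 0 counts in the sCAF library, was at least 42.2-fold lower by its exact interval. Snai1 alone was called higher, at 2.93-fold (2.26 to 3.85), and Vim, at 1.54 (1.49 to 1.59), met neither call. The 6 lower and 1 higher calls stand against 17.3% of 9815 genes lower and 15.9% higher, and the median log2 ratio was -5.41 over the members and 0.17 over all genes. The Prrx1, Twist2 and Snai2 values rest on 2, 1 and 1 counts in the sCAF library. Prrx1, Cdh11, Twist2, Zeb1 and Snai2 reached the count minimum only through NMF, where they had 273, 74, 69, 63 and 43 counts. The number of lower calls and the members' median are therefore not independent of that minimum.

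Fibroblast and epithelial signal moved with these ratios. All of the sCAF to NMF differences stand beside a fibroblast marker sum of 231 against 41199 normalised CPM and an epithelial marker sum of 3869 against 185, and the part of this difference in the member ratios was not tested. The epithelial targets of the EMT repressors were higher in 12 of 15 measured cases and lower in 1 (median log2 ratio 4.63). This list shares genes with the epithelial markers, among them Epcam, Cdh1 and Krt18, so the lists are not independent of each other. Krt18 had 7616 counts in the library labelled sCAF against 35 in NMF, at 101-fold (72.5 to 145), and the E-cadherin gene Cdh1 92 against 9, at 4.74-fold (2.39 to 10.7). Among other EMT-associated factors 5 of 11 were higher and 3 lower (median 0.44). Fosl1, an AP-1 subunit, and Hmga2, a chromatin protein of embryonic and tumour cells, had 444 and 382 counts in the library labelled sCAF and 0 in NMF. With 3 counts put in for the 0, they were 68.7-fold and 59.1-fold higher. Sox9 was 46.4-fold (12.7 to 386) and Sox4 6.06-fold higher (5.15 to 7.19), while Prrx2, the paralog of Prrx1, was 110-fold lower (29.7 to 920). Mesenchymal effectors were lower in 11 of 20 cases and higher in 3 (median -1.93), the higher ones being S100a4 at 40.9-fold (32.8 to 51.6), Cd44 at 7.89-fold (5.08 to 12.9) and Itgb1 at 2.81-fold (2.54 to 3.12).

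Set directly against the library labelled sCAF, pCAF had 5 of 7 measured members higher and none lower, with a background of 11.5% of 8915 genes higher and 11.2% lower. Prrx1 was 437-fold higher (119 to 3643), Twist2 205-fold (34.2 to 8359), Zeb1 95.9-fold (35.5 to 364) and Twist1 3.07-fold (2.35 to 4.00). Cdh11 was at least 104-fold higher by its exact interval. Snai1 stood at 0.766 (0.558 to 1.03). The members' median log2 ratio was 6.58 and that of all genes -0.44. Prrx1, Cdh11, Zeb1 and Twist2 reached the count minimum only through pCAF, where they had 132, 60, 58 and 31 counts. The number of higher calls and the members' median are therefore not independent of that minimum. Mesenchymal effectors followed the members, with 16 of 22 higher and 2 lower, and 10 of 15 epithelial targets were lower. The 3 comparisons of this table share their libraries, so they are not independent of each other.

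**Figure D3:**
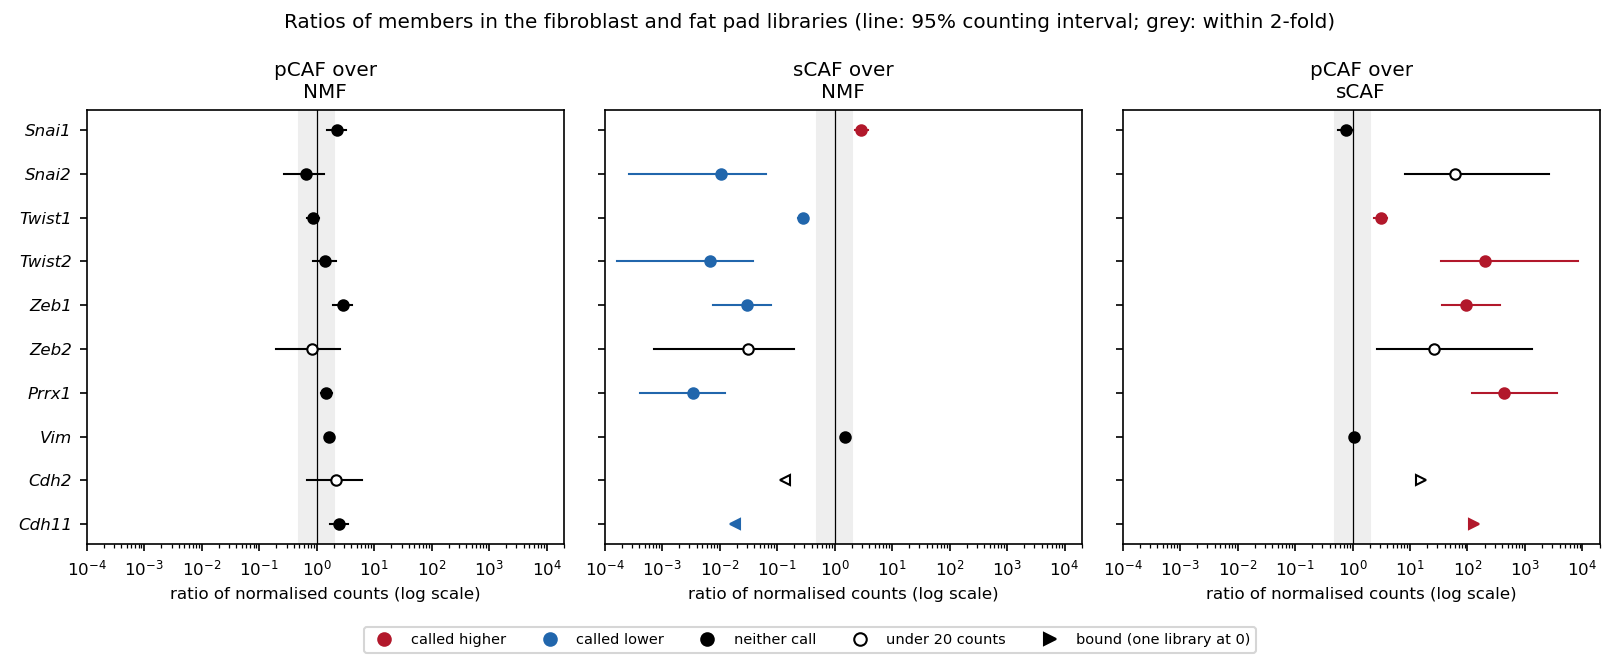
Ratio of normalised counts (log scale) of each member in pCAF over NMF, sCAF over NMF and pCAF over sCAF, with 95% counting intervals. Grey marks ratios within 2-fold, and triangles mark ratios with 3 counts put in for a library at 0. The pCAF to NMF ratios of the 8 measured members lie between 0.643 and 2.83, whereas in sCAF over NMF 6 members are called lower and Snai1 is called higher.

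Between the EpCAM- and EpCAM+ sorts of GFP+ tumour cells, 3 members were measured and none was called. Snai1 stood at 1.43 in GFP+ EpCAM- relative to GFP+ EpCAM+ (1.23 to 1.67), Twist1 at 1.93 (1.65 to 2.27) and Vim at 1.44 (1.40 to 1.47). All 3 intervals lay above 1 and none wholly past 2-fold, in a comparison where 0.396% of 9100 genes were called higher and 0.736% lower. A count of none of 3 is near that background. The median log2 ratio was 0.52 over these 3 members and -0.01 over all genes. Zeb1 had 11 counts in GFP+ EpCAM- against 5 in GFP+ EpCAM+, and Zeb2 13 against 1, a ratio of 15.5 (2.33 to 659) that was under the count minimum and was called when no minimum was set. Snai2, Twist2, Prrx1, Cdh2 and Cdh11 had 0 counts in both GFP+ sorts and have no ratio.

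Epithelial genes were lower in the EpCAM- tumour cells, beyond the gated gene itself. Of 19 measured epithelial targets 8 were lower and none higher, with a median log2 ratio of -1.42; Epcam, used for the gate, is among them at 11.3-fold (8.55 to 15.2). Rab25, an epithelial trafficking GTPase, had 9 counts in GFP+ EpCAM- against 149 in GFP+ EpCAM+, at 13.9-fold lower (7.12 to 30.9). The claudin gene Cldn4 had 421 against 3393, at 6.76-fold lower (6.10 to 7.49), and Cdh1 166 against 485, at 2.45-fold lower (2.05 to 2.94). The keratin genes differed among themselves. Krt7 was 2.72-fold lower (2.54 to 2.91), and Krt14, from the epithelial marker list, 7.42-fold lower (6.51 to 8.48), on 252 counts in GFP+ EpCAM- against 2229 in GFP+ EpCAM+. Krt19 stood at 0.608 (0.532 to 0.693), Krt18 at 0.770 (0.740 to 0.801) and Krt8 at 0.877 (0.817 to 0.941), and these 3 were not called. Of 7 epithelial fate factors 2 were lower: Esrp1, the epithelial splicing regulator, at 6.16-fold (3.70 to 10.9), and Ovol1, a repressor of EMT factors, at 5.22-fold (2.56 to 12.0). On the mesenchymal side none of 13 effectors was called (median 0.27), with Fn1 at 1.26 (1.22 to 1.31) and Sparc at 1.60 (1.44 to 1.77). With 0.396% of all genes called higher and 0.736% lower in this comparison, none of 13 is near the background. Of 11 other EMT-associated factors 1 was higher, Prrx2 at 6.36-fold (2.62 to 18.6) on 32 counts against 6, and Sox4 stood at 1.59 (1.50 to 1.70). The fibroblast marker sums of the GFP+ cells were 65.4 normalised CPM for EpCAM- and 38.3 for EpCAM+, with Lum, Pdpn and Dpt at 0 counts in both.

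In GFP- cells the EpCAM- sort had all 6 measured members higher than the EpCAM+ sort, with a background of 12.7% of 9518 genes higher and 7.33% lower. Prrx1 was 65.4-fold higher (17.6 to 547), Zeb1 31.7-fold (10.5 to 157), Snai2 29.2-fold (4.74 to 1203), Snai1 3.16-fold (2.56 to 3.92), Twist1 2.91-fold (2.23 to 3.81) and Vim 2.19-fold (2.12 to 2.26). The median log2 ratio was 3.26 over these members and -0.03 over all genes. Prrx1, Zeb1 and Snai2 reached the count minimum only through GFP- EpCAM-, where they had 103, 75 and 23 counts. The number of higher calls and the members' median are therefore not independent of that minimum. Fibroblast markers summed to 4151 normalised CPM in GFP- EpCAM- against 134 in GFP- EpCAM+, endothelial markers to 11114 against 433 and pericyte and smooth muscle markers to 4128 against 105. Which of these cells gave the member counts was not tested. Cadherins of other cells stood beside them: the endothelial Cdh5 was 79.0-fold higher (45.9 to 149) and Cdh13 18.8-fold (12.7 to 28.9), and Cdh1 3.80-fold lower (3.02 to 4.82).

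Mesenchymal effectors were higher in 11 of 20 cases in GFP- EpCAM- cells relative to GFP- EpCAM+, and lower in 1, S100a4 at 4.83-fold (4.36 to 5.38). Pdgfrb, a receptor of fibroblasts and pericytes, was 324-fold higher (89.2 to 2681). Of 21 epithelial targets 18 were lower (median -3.03) and of 10 epithelial fate factors 6 (median -2.98). The other EMT-associated factors went both ways, 1 of 10 higher and 3 lower: Tcf4 was 3.91-fold higher (2.91 to 5.33), and Sox9, Hmga2 and Fosl1 were 14.8-fold (8.29 to 29.0), 3.97-fold (2.52 to 6.51) and 3.33-fold lower (2.67 to 4.19).

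**Figure D4:**
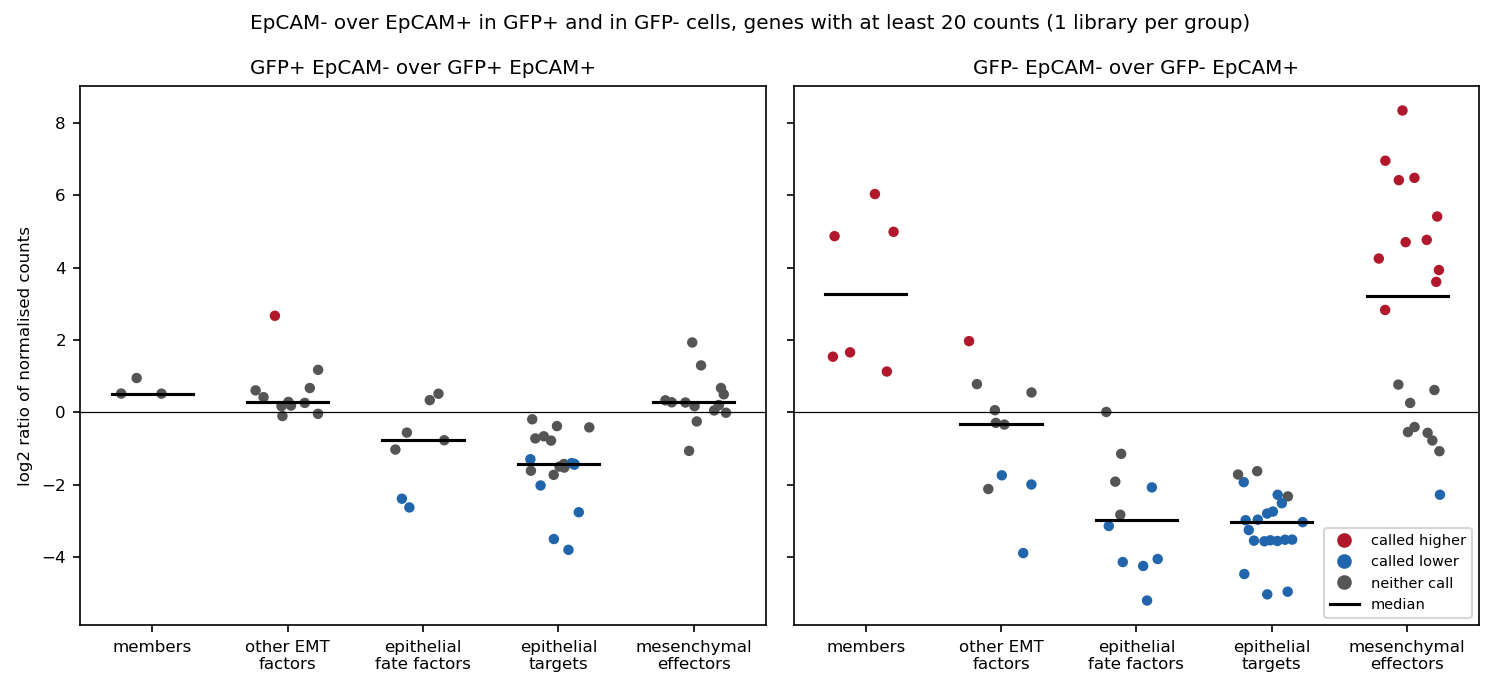
Log2 ratio of normalised counts in EpCAM- over EpCAM+ cells, in GFP+ cells (left) and GFP- cells (right), for members, other EMT factors, epithelial fate factors, epithelial targets and mesenchymal effectors with at least 20 counts; each point is a gene and bars are medians. In GFP+ cells the epithelial targets lie at a median of -1.42 and the mesenchymal effectors at 0.27, whereas in GFP- cells the medians are -3.03 and 3.22. These medians are not over the same genes: 19 targets and 13 effectors were measured in GFP+ cells, and 21 and 20 in GFP- cells.

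The EpCAM ratios of Snai1, Twist1 and Vim, the members with at least 20 counts in both GFP arms, were smaller in GFP+ than in GFP- cells. The GFP+ ratio divided by the GFP- ratio was 0.454 for Snai1 (0.351 to 0.587), 0.665 for Twist1 (0.491 to 0.899) and 0.656 for Vim (0.632 to 0.681). All 3 intervals, which are normal approximations on the log scale, lay below 1, and they hold counting error only. Each GFP arm has its own pair of libraries, so this difference has no check across replicates.

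Among EpCAM- cells, the GFP+ tumour cells had 3 of 7 measured members lower than the mixed GFP- cells and none higher, with a background of 14.1% of 9551 genes lower and 5.55% higher. Prrx1 and Snai2, at 0 counts in GFP+ EpCAM-, were at least 44.3-fold and 9.29-fold lower by their exact intervals. Zeb1 was 11.0-fold lower (5.82 to 23.0). Snai1 stood at 0.724 (0.621 to 0.845), Twist1 at 1.32 (1.11 to 1.57) and Zeb2 at 0.619 (0.264 to 1.45), and none was called. The members' median log2 ratio was -0.69 and that of all genes 0.03. Prrx1, Snai2 and Zeb1 reached the 20-count minimum only through GFP- EpCAM-, where they had 103, 23 and 75 counts. The number of lower calls is therefore not independent of that minimum. Mesenchymal effectors went both ways, with 4 of 20 higher and 10 lower. The higher ones were S100a4 at 8.12-fold (7.35 to 8.998), Cd44 at 3.96-fold (3.12 to 5.06), Axl at 3.39-fold (2.92 to 3.96) and Fn1 at 2.97-fold (2.79 to 3.16), and the lower ones included Col3a1 at 456-fold (195 to 1407) and Col1a2 at 165-fold (92.0 to 332). Of 11 other EMT-associated factors 4 were higher: Sox9 at 11.6-fold (6.51 to 22.8), Fosl1 at 7.85-fold (6.40 to 9.74), Hmga2 at 6.35-fold (4.13 to 10.2) and Sox4 at 2.39-fold (2.19 to 2.61).

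Among EpCAM+ cells none of the 3 measured members was called between GFP+ and GFP-, where 0.216% of 9241 genes were called higher and 4.18% lower. A count of none of 3 is near that background. Twist1 stood at 1.98 (1.54 to 2.57), Snai1 at 1.60 (1.29 to 1.98) and Vim at 1.46 (1.42 to 1.50). All 3 intervals lay above 1, with a median log2 of 0.67 against 0.01 for all genes. The remaining 7 members had at most 5 counts in either library. The 4 comparisons of the sorts share libraries in pairs.

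**Figure D5:**
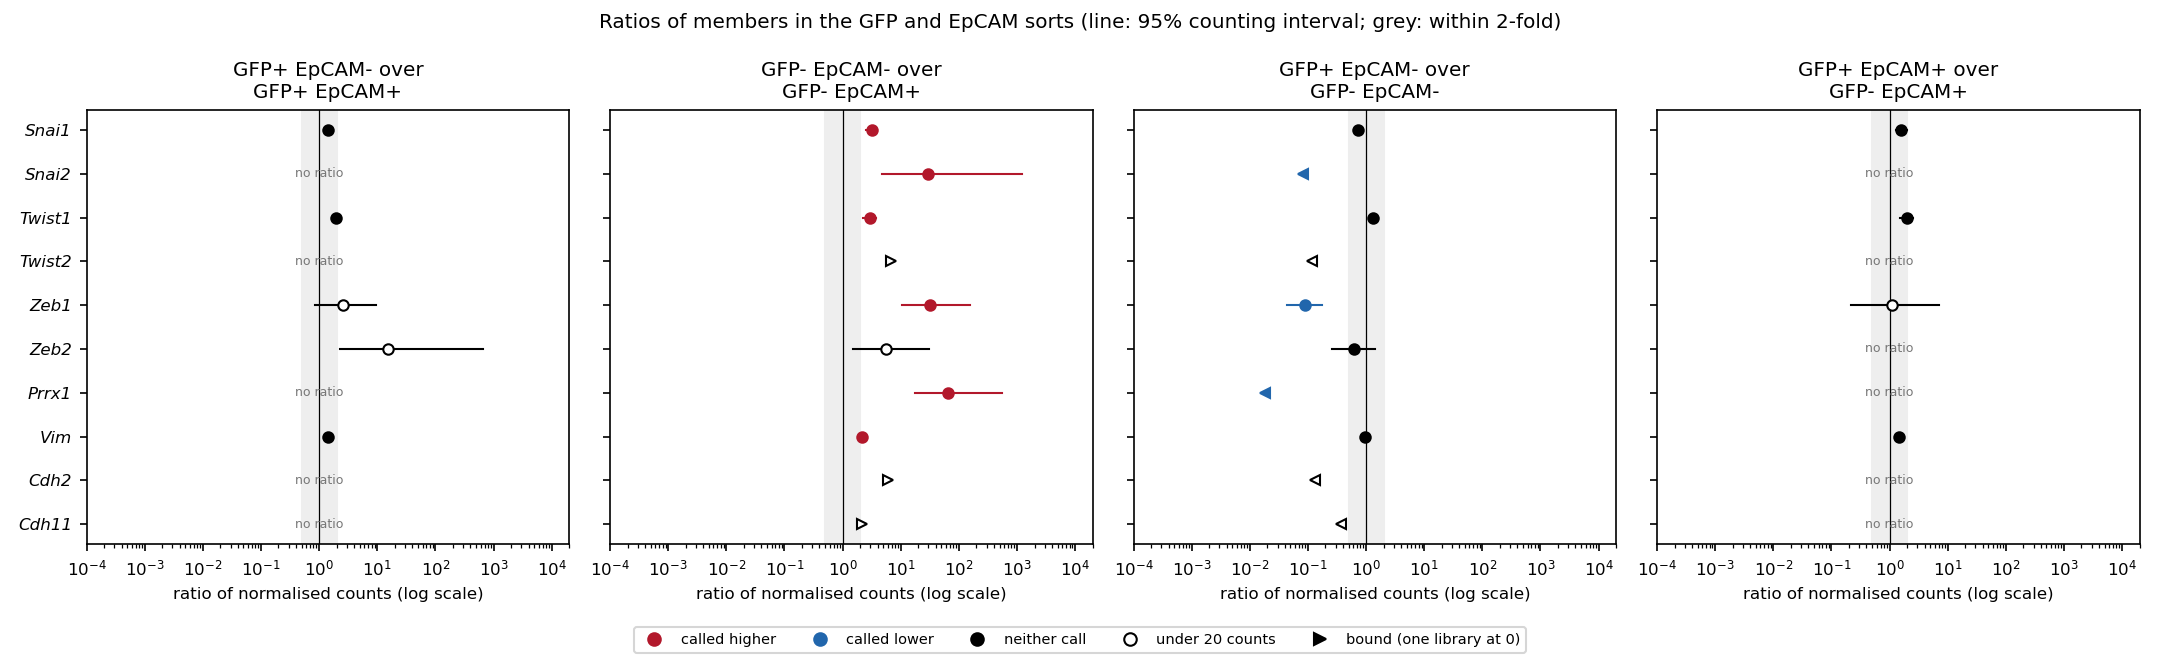
Ratio of normalised counts (log scale) of each member for the EpCAM contrast in GFP+ and GFP- cells and the GFP contrast in EpCAM- and EpCAM+ cells, with 95% counting intervals; open symbols have under 20 counts and triangles are bounds. In the GFP+ EpCAM contrast Snai1, Twist1 and Vim lie between 1.43 and 1.93, and in the GFP- one they lie between 2.19 and 3.16.

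The counts of Prrx1, Twist2, Zeb1, Cdh11, Snai2 and Cdh2 were also set against the counts of the 10 fibroblast markers. Per 1000 fibroblast marker counts Prrx1 had 5.15 counts in pCAF and 5.38 in NMF, and Twist2 1.21 in pCAF and 1.36 in NMF. Zeb1 had 2.26 in pCAF and 1.24 in NMF, Cdh11 2.34 in pCAF and 1.46 in NMF, Snai2 0.351 in pCAF and 0.847 in NMF, and Cdh2 0.273 in pCAF and 0.197 in NMF. Per fibroblast marker count, Prrx1 and Twist2 thus stood at similar values in pCAF and NMF, Zeb1 and Cdh11 at higher values in pCAF, and Snai2 at a lower one. These values have no counting interval. The marker counts also differed in make-up: Col1a2 gave 9260 of 25656 in pCAF and 11216 of 50747 in NMF, and Dcn 1665 and 11813. The denominator therefore does not measure the number of fibroblasts. In GFP- EpCAM-, a library of the other table, the values were 19.3 for Prrx1, 14.0 for Zeb1, 4.30 for Snai2, 2.99 for Twist2, 2.62 for Cdh2 and 0.936 for Cdh11. The fibroblast markers Pdgfra, Pdpn and Lum had 2, 3 and 11 counts there, and endothelial markers outweighed the fibroblast ones (11114 against 4151 normalised CPM).

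Likeness of pattern was described by the Pearson correlation of log2 normalised CPM (pseudocount 1), centred within each table, over the 7 libraries. Among 8976 genes with at least 100 counts, Snai1 was most like Synpo (r = 0.98), Kctd10 (0.98) and Cdc42 (0.97), and Vim most like Fez2 (0.99), Slc4a1ap (0.98) and Ppard (0.98). Twist1 was most like Il17ra (0.98), Uri1 (0.97) and Edem1 (0.96). Twist2 was most like C1qtnf2, Flrt2 and Islr, Zeb1 most like Speg, Ccdc80 and Mxd4, Prrx1 most like S100a13, Pagr1a and Mfap2, and Cdh11 most like Cilp, Snap23 and Sh3gl1, each between 0.99 and 1.00. These correlations do not take account of level or of the size of a change, so a like gene need not share the absence of a member. Prrx1 and Cdh11 were at 0 in the GFP+ EpCAM- library. Of their like genes S100a13 stood there at 215 counts, Pagr1a at 99, Sh3gl1 at 156 and Snap23 at 38, whereas Mfap2 and Cilp were at 0. Snai2, Zeb2 and Cdh2 had too few counts for a correlation. Between members, Snai1 and Vim correlated at 0.94, Twist2 and Prrx1 at 0.99 and Twist2 and Zeb1 at 0.98, while Snai1 and Prrx1 stood at -0.03. The 7 points share library composition and depth, and within each table Twist2, Zeb1, Prrx1 and Cdh11 were higher in the libraries with the high fibroblast marker sums than in the others.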

How the data were processed

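Per the labels, 3' mRNA libraries were made from sorted cells, and the second read carried a molecular identifier. The authors deposited 2 tables of raw counts, whole numbers for each gene symbol, with 3 and 4 libraries. Per the submitters' processing notes the tools included HTSeq, STAR, cutadapt, bcl2fastq and DESeq2, with mm10; their versions and roles, strand handling and whether identifiers were collapsed are not stated there, so counts may include amplification duplicates. Between 0.152% and 0.198% of counts fell on names turned into dates, which were left out.

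Counts were scaled within each table by TMM (edgeR 4.0.16, R 4.3.3). With 1 library a group no test across samples was run. Ratios have exact Clopper-Pearson intervals (95%, scipy 1.17.1, Python 3.11.15) from the binomial of both counts, covering counting error only. The GFP+ ratios divided by the GFP- ratios have 95% intervals from a normal approximation on the log scale instead. Calls were made over each whole table. Where a library had 0 counts, 3 were used for the ratio, and the limit of its exact interval lies nearer 1. The method was tested on simulated counts. The alternatives tried were total counts, size factors from DESeq2 1.42.0, scaling without ribosomal protein genes, no count minimum, at least 100 counts and a 4-fold rule. Factors from pCAF and NMF alone were an alternative chosen after seeing the data. Besides the 10 members, 10 lists of EMT genes, a list of immediate early genes and 7 marker lists were used. From these, up to 4 genes with the largest counts and up to 2 called genes per direction with the farthest interval bound were named; further called genes were added after their values were seen, and 1 gene that this rule named is not reported here. Members and lists were chosen with earlier results of these data known. Positions are from GENCODE for GRCm38, the assembly that mm10 names, and upstream windows from RefSeq on GRCm38.p6.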

Additional observations from a re-analysis of the deposited data

Results flagged for a closer look

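Zeb1, Prrx1 and Cdh11 stood on opposite sides of NMF in the tumour libraries of the first table. For Zeb1 the ratio to NMF was 2.83 in pCAF and 0.0295 in the library labelled sCAF. Prrx1 stood at 1.48 times its NMF level in pCAF and at 0.0034 in the library labelled sCAF. Cdh11 stood at 2.49 in pCAF and, with 0 counts in the library labelled sCAF, at no more than 0.0188 there. The difference between the pair of ratios was not tested for any of these genes, the ratios share the NMF library, and the fibroblast marker sums moved with them (63956 normalised CPM in pCAF, 231 in the library labelled sCAF and 41199 in NMF).

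Snai1 and Vim stood on opposite sides of the GFP- level in EpCAM- and EpCAM+ cells. The GFP+ to GFP- ratio of Snai1 was 0.724 in EpCAM- cells and 1.60 in EpCAM+ cells, and that of Vim was 0.956 in EpCAM- cells and 1.46 in EpCAM+ cells. These differences were not tested across replicates, and the Vim ratio in EpCAM- cells was above 1 with total counts.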

How the results depend on the processing

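Of 36 alternative counts of called members 28 stayed within 1.5 times the reported count and 8 did not; the cause was not tested except where fewer or more genes entered. For pCAF versus NMF, DESeq2 size factors called 1 member (Zeb1) in place of 0. With at least 100 counts, 3 members were called in place of 7 for sCAF versus NMF, 2 in place of 5 for pCAF versus sCAF and 1 in place of 3 for GFP+ versus GFP- EpCAM- cells, because fewer members entered. With no count minimum, 8 were called for pCAF versus sCAF, 5 for GFP+ versus GFP- EpCAM- cells and 1 (Zeb2) for the EpCAM split of GFP+ cells in place of 0. Under the 4-fold rule 3 of the 6 members called in the EpCAM split of GFP- cells were called. Of 126 member ratios under 3 other scalings 2 changed side, both Vim with total counts: 0.963 for pCAF versus sCAF and 1.04 for GFP+ versus GFP- EpCAM- cells. Another 8, all of Vim, fell outside their counting interval. For pCAF versus NMF, Vim stood at 1.43 with total counts, against 1.65 (1.57 to 1.73). The choice of scaling thus moved Vim ratios by more than their counting intervals. Total counts moved every log2 ratio by -0.21 for pCAF versus NMF, -0.16 for pCAF versus sCAF and 0.13 for GFP+ versus GFP- cells within each EpCAM arm, and DESeq2 factors moved those of pCAF versus sCAF by 0.15. No paired analysis was possible because each group holds 1 library. At 436051 counts pCAF limits Zeb2, Cdh2 and Snai2, which had 4, 7 and 9 counts there.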

Other observations

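Growth factors, receptors and signalling genes that act upstream of the EMT factors are given beside the share of all measured genes called in the same comparison. The growth factor genes Tgfb1 and Tgfb3, which induce Snai1 and Zeb genes in many cells, were 5.70-fold (3.99 to 8.24) and 3.76-fold higher (2.77 to 5.12) in pCAF than in NMF, and the receptor gene Notch1 was 5.21-fold lower (2.31 to 14.6), out of 13 measured inducers and receptors, against 7.58% of all genes higher and 7.91% lower. In the library labelled sCAF relative to NMF 2 of 16 were higher, Met at 4.76-fold (2.80 to 8.72) and Smad3 at 4.05-fold (3.10 to 5.37), and 7 were lower, among them the receptor gene Tgfbr2 at 8.03-fold (7.02 to 9.21), against 15.9% of all genes higher and 17.3% lower. Of 13 measured in GFP+ EpCAM- relative to GFP+ EpCAM+ none was called, with Tgfb1 at 0.937 (0.792 to 1.11) and Tgfbr1 at 0.931 (0.798 to 1.08); with 0.396% of all genes higher and 0.736% lower there, a count of none is near the background. In GFP+ EpCAM- relative to GFP- EpCAM- 2 of 14 were higher, Smad3 at 5.42-fold (3.95 to 7.62) and Met at 3.07-fold (2.02 to 4.83), and 4 were lower, among them Hgf, the ligand of Met, at 0 counts in the GFP+ cells and 53 in the GFP- cells, against 5.55% of all genes higher and 14.1% lower.

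Of the Id genes, whose proteins hold basic helix-loop-helix factors off DNA, Id1 was 5.21-fold lower in pCAF (3.04 to 9.69) and 5.61-fold lower in the library labelled sCAF (4.36 to 7.28) than in NMF, comparisons that share NMF. Endothelial markers were also highest in NMF among these libraries, and their part in the Notch1 and Id1 ratios was not tested. Among 10 corepressors of Snail and Zeb proteins, Ezh2 and Ajuba were 11.8-fold (5.28 to 32.5) and 10.2-fold higher (5.45 to 21.6) in the library labelled sCAF than in NMF. These 2 of 10 are near the 15.9% of all genes called higher there. In pCAF relative to the library labelled sCAF 1 of 10 was lower, against 11.2% of all genes. None of 8 measured was called in pCAF relative to NMF, against 7.58% of all genes higher and 7.91% lower, and none of 10 in the 4 comparisons of the sorts. Of 4 measured catenins none was called in those 4 comparisons. The shares of all genes called in the sorts ran from 0.216% to 12.7% higher and from 0.736% to 14.1% lower, and none of 10 or of 4 is near the background where these shares are low. Among 8 other filament and linker genes, Des, which encodes desmin, was 127-fold higher (68.5 to 265) in GFP- EpCAM- than in GFP- EpCAM+, and the lamin gene Lmnb1 was 5.11-fold higher (3.15 to 8.79) in the library labelled sCAF than in NMF.

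Of the remaining marker lists, leukocyte markers summed to between 17.0 and 841 normalised CPM per library, with Ptprc at 0 or 1 counts outside GFP- EpCAM-, where it had 29. Schwann markers summed to between 21.6 and 1124 and adipocyte markers to between 8.17 and 2734. In the first table both were highest in NMF, at 1124 and 2438 normalised CPM, against 47.4 and 199 in pCAF.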
